A study of Mus musculus with 16 samples.

Results

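The G1 cyclins and their kinase regulators are described here as a set of 10 genes out of 23420 gene symbols listed for each cell population. They are the D cyclin genes Ccnd1, Ccnd2 and Ccnd3, the E cyclin genes Ccne1 and Ccne2, the kinase genes Cdk4 and Cdk6, the inhibitor genes Cdkn1b and Cdkn2c, and Rb1. The genes were taken by symbol from the authors' deposited tables, and the set was chosen by their log2 fold changes between libraries labelled Tet2KO and WT in these same tables, so those fold changes are given as a description and not as a test. All 10 symbols were found in both tables.

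In G1, growth factor signals raise D cyclins, which bind the kinases CDK4 and CDK6 and start to phosphorylate the retinoblastoma protein, the product of Rb1. Phosphorylated RB releases E2F factors, E2F factors induce E cyclins, and cyclin E with CDK2 completes the passage into S phase. INK4 inhibitors such as p18, the product of Cdkn2c, bind CDK4 and CDK6, and p27, the product of Cdkn1b, binds cyclin-kinase complexes. In blood formation CDK6 is known for its role in the exit of stem cells from quiescence, and p18 and p27 for restraining it.

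RNA was measured in progenitors sorted from mouse bone marrow at 40 weeks of age. Multipotent progenitors (MPP), which still give rise to several blood lineages, were sorted as Lin-cKit+Sca1+CD48+CD150-, and granulocyte-monocyte progenitors (GMP), committed to the myeloid lineage, as Lin-cKit+Sca1-CD150-CD16/32+. For each population 4 libraries were labelled WT, with the genotype Tet2fl/fl, and 4 were labelled Tet2KO, with the genotype Tet2-/-, which makes 16 libraries in all, each from an individual mouse. The controls thus carry a floxed allele, and the sources used here do not give how the allele was deleted. By the mouse numbers in the titles, 3 mice per genotype gave both populations, so the populations are not independent. TET2 oxidizes 5-methylcytosine in DNA.

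The tables hold a mean over all libraries of a population, a log2 fold change (Tet2KO over WT, as the tables are named) with its standard error (SE), and a status, but no value per library, so the depth and the values of single libraries cannot be shown. Tet2 itself stood at 0.44 (SE 0.0992) in MPP and 0.35 (SE 0.0748) in GMP in the authors' deposited tables, and was called higher in the libraries labelled Tet2KO in both (adjusted p = 0.00551 and 0.000409). This value for the whole gene does not check the deletion, so the direction of every fold change below rests on the names of the tables. Ly6a, which encodes Sca1, and Fcgr3, which encodes CD16, differed in the direction of the gates. Their means in MPP and GMP were 266.2 and 19.5 for Ly6a, and 19.3 and 525.2 for Fcgr3. Kit, positive in both gates, had means of 7542 and 6397, and Cd48, gated only in MPP, of 1026 and 1270. Slamf1, which encodes CD150, negative in both gates, had means of 26.7 and 3.77. Mpo, the myeloperoxidase gene, is not a gate marker and had means of 23699 and 200049. Of 6 GMP markers, 4 were marked as outliers in MPP, among them Mpo (log2 fold change 0.54, SE 0.325), and so were all 5 erythroid markers listed in each table. T cell markers summed to 83.9 in MPP and 9.56 in GMP, B cell markers to 104.5 and 35.5, and late neutrophil markers to 64.6 and 95.8. In MPP, where 0.616% of all tested genes were called, the 1 tested B cell marker was called lower and 1 of 5 tested megakaryocyte markers higher. In GMP, where 3.96% were called, 2 of 2 tested monocyte, 2 of 4 megakaryocyte and 1 of 2 late neutrophil markers were called higher. Of the others, 2 of 4 tested mast cell and basophil, 1 of 4 stem cell and 1 of 5 GMP markers were called lower there. In sorted bulk samples, fewer cells of a type and less RNA per cell cannot be told apart. Whether such markers have a part in the values below was not tested.

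Cdk6 and Cdk4, the alternative partners of the D cyclins, were the most abundant genes of the set per length. The level used here is the mean normalized count divided by the summed length of all annotated exons in kilobases (kb). Cdk6 reached 656 per kb in MPP and 782 per kb in GMP, above 96.7% and 96.5% of tested genes. Cdk4 reached 504 and 626 per kb, and Ccnd2 338 and 428 per kb. Rb1 (130 and 180 per kb) came next, and Ccne2 (73.3 and 110 per kb), Cdkn2c (92.5 and 78.3 per kb), Ccnd1 (97.0 and 60.5 per kb), Ccnd3 (50.5 and 49.4 per kb) and Cdkn1b (50.6 and 42.4 per kb) lay lower. Ccne1 had the lowest level of the set in MPP, at 32.8 per kb, and Cdkn1b in GMP. The plot of levels per length shows this order, which without values per library carries no error. Cdk6 and Cdk4 are close enough that their order turned with the length used, since with the longest transcript in place of all exons Cdk4 (798 per kb in MPP) and Cdk6 (797 per kb) were nearly equal.

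**Figure D1:**
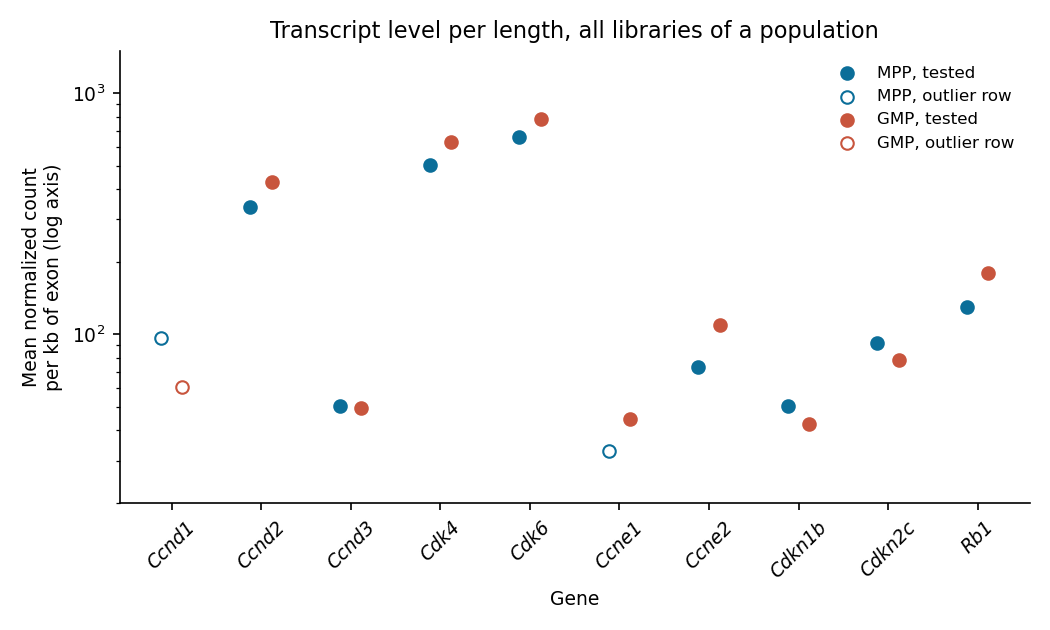
Mean normalized count per kilobase of exon (log axis) for each of the 10 genes in MPP and GMP; filled points are genes tested by the authors, open points rows marked as outliers. Cdk6, Cdk4 and Ccnd2 stand above 300 per kb in both populations, and the other genes lie between 32.8 and 180 per kb.

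Cyclin D2 made up most of the D cyclin transcript pool. Of the summed D cyclin level per length, Ccnd2 held 69.6% in MPP and 79.6% in GMP, Ccnd1 19.97% and 11.2%, and Ccnd3 10.4% and 9.17%. These shares pool WT and Tet2KO. Shares within each group use implied means, given below for Ccnd1 with the conditions they rest on. The share of Ccnd1 in MPP was 25.5% in WT and 13.6% in Tet2KO, and in GMP 14.4% and 7.93%. Both Ccnd1 rows are marked as outliers with no p-value, so this split was not tested and single libraries may weigh on it. Ccnd2 held the largest share in each group. In GMP Tet2KO the share of Ccnd3 (9.81%) was above that of Ccnd1, which turns the order of the pooled shares. That order also depends on the length used, since with the longest transcript the pooled GMP share was 13.6% for Ccnd3 and 9.23% for Ccnd1. All of these shares are ratios within a table and do not depend on how the tables were scaled to each other. Between the populations, the mean of Ccnd1 was lower in GMP than in MPP by 0.75 on the log2 scale once the median shift of all genes tested in both tables (0.07) was subtracted. For the other genes the same difference was 0.51 for Ccne2, 0.398 for Rb1, 0.37 for Ccne1, 0.27 for Ccnd2, 0.24 for Cdk4, 0.18 for Cdk6, -0.10 for Ccnd3, -0.31 for Cdkn2c and -0.33 for Cdkn1b. The E cyclins, Rb1, the kinases and Ccnd2 were thus relatively higher in GMP, and both inhibitors, Ccnd1 and Ccnd3 relatively higher in MPP. The tables were normalized separately and these levels have no error, so the differences were not tested.

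Of the D cyclins, Ccnd1 stood apart in both populations. Ccnd1 (chromosome 7, 144929931 to 144939925, minus strand, mm10) had a mean of 457 in MPP and 284.8 in GMP and a log2 fold change of -1.11 (SE 0.232) and -0.92 (SE 0.222) in the authors' deposited tables. Group means follow if groups are of equal size and the fold change is a plain ratio of group means. They would be about 624 normalized counts in WT and 290 in Tet2KO for MPP, and 373 and 197 for GMP. The sources used here do not give whether the authors' DESeq2 shrank fold changes towards 0, in which case these implied means would be off. Very low means had small SEs, such as 0.0913 for Cdkn2a in MPP (mean 0.125), and whether values were shrunk was not tested. Both rows carry the status Outlier and no p-value. That status is given to 3.50% of MPP genes and 2.66% of GMP genes with a mean of at least 10. The ratio of fold change to SE was -4.76 in MPP and -4.17 in GMP, and of 430 outlier rows in MPP only 4, Ccnd1 included, had a ratio as large in size (7 of 314 in GMP). Its SE was 1.71 times the median SE of the 200 tested genes nearest in mean in MPP (0.232 against 0.136) and 1.85 times in GMP (0.222 against 0.120), above all 200 in each. Which of the 8 libraries of a population led to the outlier status, and whether by high or low values, cannot be seen. The 2 values are not independent, because mice are shared.

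Ccnd2 and Ccnd3 lay near 0 in both populations. Ccnd2 (chromosome 6, 127125162 to 127152193, minus strand, mm10) had a mean of 3184 in MPP and 4032 in GMP. In the authors' deposited tables its log2 fold change was -0.0021 (SE 0.0861) in MPP and 0.03 (SE 0.0907) in GMP, with 95% intervals for the change of -11.2% to 12.3% and -9.52% to 15.8%. Ccnd3 (chromosome 17, 47505051 to 47599691, plus strand, mm10), with means of 443 and 433, had values of 0.08 (SE 0.134) and 0.14 (SE 0.106) in the authors' deposited tables. Ccnd3, which is known for its role in expanding lymphoid and erythroid precursors, and Ccnd2 thus differed from each other by 0.08 in MPP and 0.10 in GMP. The fold change of Ccnd1 minus that of Ccnd2 was -1.104 (SE 0.248) in MPP and -0.96 (SE 0.240) in GMP, with errors taken as independent. Any shrinkage of the fold changes is not allowed for in this difference.

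Cdk6 was higher in libraries labelled Tet2KO in MPP. Cdk6 (chromosome 5, 3341485 to 3531008, plus strand, mm10) had a mean of 9183 in MPP. The authors' deposited table gives it a log2 fold change of 0.42 (SE 0.103), which is 34.0% more transcript with a 95% interval of 16.4% to 54.1%. Under the conditions given for Ccnd1, the mean and fold change imply about 7850 normalized counts in WT and 10515 in Tet2KO. The adjusted p listed for it in the authors' deposited table is 0.0121, and it was the only one of 8 tested members called at 0.05 in MPP, where 0.616% of all tested genes were called. This count is a description, since the members were chosen with it known. In GMP, with a mean of 10936, the log2 fold change of Cdk6 was 0.19 (SE 0.0663, adjusted p = 0.0827) by the authors' deposited table, or 13.8% more transcript, with an interval of 4.01% to 24.5%. None of the 9 tested members was called in GMP, where 3.96% of all tested genes were. In each population 2 members had an unadjusted p under 0.05 with the authors' DESeq2, as had 9.72% of all tested genes in MPP and 16.4% in GMP. The MPP call did not hold when the statistics of all genes were recentred and scaled to their own robust spread of 1.15 (adjusted p = 0.108), or at a threshold of 0.01. With that scaling only 18 of 11859 tested genes were called in MPP.

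Cdk4 was not called in either population. Cdk4 (chromosome 10, 127063534 to 127067920, plus strand, mm10) had means of 1639 in MPP and 2035 in GMP. The authors' deposited tables list it at -0.05 (SE 0.121) for MPP and -0.15 (SE 0.0685, adjusted p = 0.218) for GMP. Cdk6 exceeded Cdk4 in fold change by 0.48 in MPP (95% interval 0.16 to 0.79) and by 0.34 in GMP (0.15 to 0.53), with errors taken as independent. With the fold changes taken as plain ratios, the Cdk6 to Cdk4 transcript ratio was 1.39 times as high in Tet2KO as in WT in MPP. In GMP it was 1.26 times as high. These pairs were chosen with the values in view, and the differences are descriptions.

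Sequence before a RefSeq start of each kinase gene is shown because the members of the pair lay on opposite sides of 0, and because E-boxes of the form CACGTG, bound by MYC and related factors, occur in both. The sequences (GRCm38.p6, plus strand, 5′ to 3′) lie within the 250 bases before the RefSeq start, leaving out exons annotated by GENCODE, and capitals mark CACGTG. The RefSeq start is at 3343893 for Cdk6, which lies inside the GENCODE span of the gene given above, and at 127063535 for Cdk4.
Cdk6, chr5:3343643-3343731: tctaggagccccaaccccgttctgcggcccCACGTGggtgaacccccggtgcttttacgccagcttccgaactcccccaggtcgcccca
Cdk4, chr10:127063285-127063533: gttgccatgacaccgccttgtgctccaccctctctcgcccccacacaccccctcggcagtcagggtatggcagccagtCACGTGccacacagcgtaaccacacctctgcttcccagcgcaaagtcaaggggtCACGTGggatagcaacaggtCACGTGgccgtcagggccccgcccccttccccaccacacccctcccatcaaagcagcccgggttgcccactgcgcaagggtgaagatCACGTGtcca
The 250-base window of Cdk6 holds 1 CACGTG, as do 6.02% of 32851 such windows with 1 or more, and that of Cdk4 holds 4. Only 7 of the windows (0.0213%), that of Cdk4 included, hold 4 or more. This count was picked from a search for several motifs in the windows of the 6 members with a RefSeq promoter. CACGTG reads the same on both strands. The RUNX motif TGTGGT, searched on both strands, was found 2 times in the window of Cdk4 and 0 times in that of Cdk6, against 14.05% of all windows with 1 or more. The 2 E2F motifs searched, TTTCCCGC and TTTGGCGC, were found in no window of the 6 members, against 0.895% and 0.417% of all windows. With exact motifs this rare, their absence from a few windows does not show that the members lack E2F sites. The GC box GGGCGG was found for Cdk4, Ccne1, Cdkn1b, Cdkn2c and Ccnd3, against 32.7% of all windows. All such matches are letters in a window, and no binding was measured here. Myc, whose product binds such E-boxes, is listed in the authors' deposited tables at 0.198 (SE 0.106, adjusted p = 0.535) for MPP and 0.26 (SE 0.108, marked as an outlier) for GMP.

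Neither E cyclin was called in either population. Ccne2 (chromosome 4, 11191351 to 11204779, plus strand, mm10), with means of 256.2 in MPP and 384 in GMP, had opposite signs in the authors' deposited tables, with a log2 fold change of 0.31 for MPP (SE 0.142, adjusted p = 0.426) and -0.10 for GMP (SE 0.106, adjusted p = 0.707). The MPP value corresponds to 24.3% more transcript with an interval of 2.56% to 50.7%, and does not pass the adjustment over all genes. Ccne1 (chromosome 7, 38097984 to 38107534, minus strand, mm10) was the scarcest member by mean, with 87.4 in MPP and 118.8 in GMP. Its log2 fold change was 0.06 (SE 0.301, marked as an outlier) and -0.07 (SE 0.161) in the authors' deposited tables. The MPP interval for Ccne1 runs from -30.8% to 57.0%, so a change of the size seen for Cdk6 was not detectable for it.

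Neither inhibitor was called in either population. Cdkn1b (chromosome 6, 134920401 to 134925513, plus strand, mm10) had means of 230.5 in MPP and 193 in GMP, with log2 fold changes of -0.11 (SE 0.159, adjusted p = 0.896) and 0.28 (SE 0.150, adjusted p = 0.331) in the authors' deposited tables. Its GMP interval runs from -0.747% to 49.3%. Cdkn2c (chromosome 4, 109660876 to 109667189, minus strand, mm10), with means of 248.5 and 210.3, had values of -0.06 (SE 0.182) and -0.16 (SE 0.119) in the authors' deposited tables. In GMP the fold change of Cdkn1b exceeded that of Cdkn2c by 0.44 (95% interval 0.07 to 0.82, errors taken as independent), and in MPP it differed by -0.05 (SE 0.242). Rb1 (chromosome 14, 73183673 to 73325822, minus strand, mm10), the kinases' main substrate, had means of 781 and 1081 and log2 fold changes of 0.12 (SE 0.122) and -0.15 (SE 0.0945, adjusted p = 0.470) in the authors' deposited tables.

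**Figure D2:**
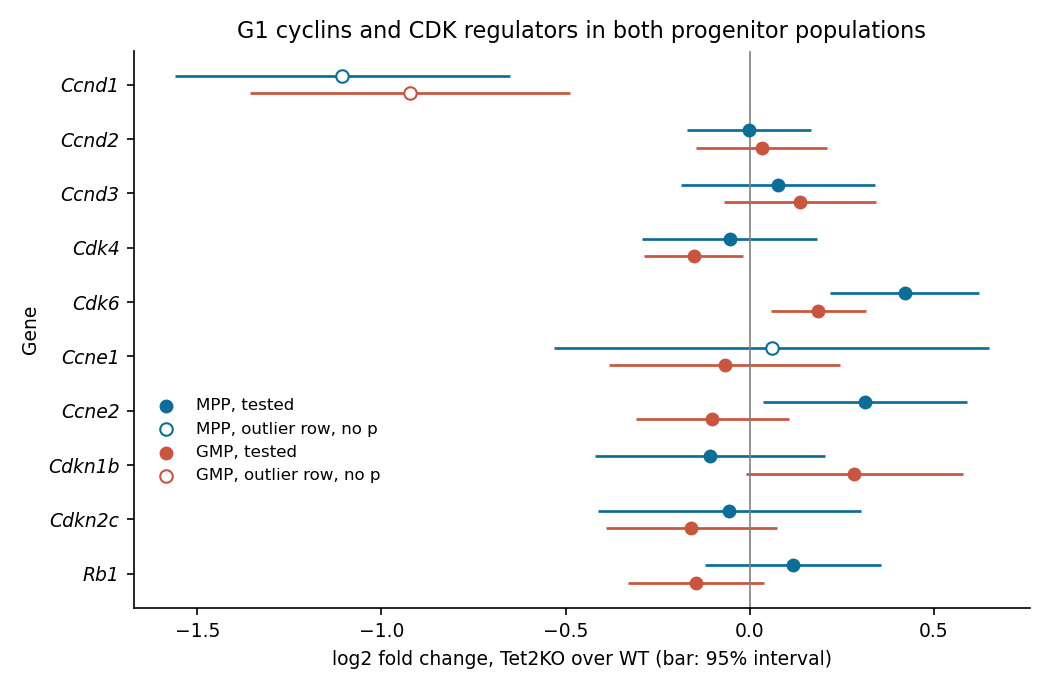
Log2 fold change of Tet2KO over WT for each of the 10 genes, with bars for the 95% interval from the authors' SE; filled points were tested by the authors, and open points are outlier rows with no p-value. Ccnd1 lies at -1.11 in MPP and -0.92 in GMP, and Cdk6 is above 0 in both populations, at 0.42 and 0.19.

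Across the set, 5 members had a value above 0 and 5 below 0 in MPP, and 4 and 6 in GMP. Their median log2 fold change, 0.03 in MPP and -0.08 in GMP, stood beside medians of -0.0038 and 0.00025 over all tested genes. Ccnd1, Ccnd3, Cdk4, Cdk6 and Cdkn2c had the same sign in both populations, and the other 5 members had opposite signs. The change in GMP minus that in MPP was -0.42 for Ccne2 (95% interval -0.76 to -0.07, errors taken as independent), the only interval of the 10 that leaves out 0. For Cdk6 it was -0.24 (interval -0.48 to 0.01), for Rb1 -0.26 (-0.57 to 0.04) and for Cdkn1b 0.39 (-0.04 to 0.82). For the remaining 6 members it lay between -0.13 for Ccne1 and 0.18 for Ccnd1. These differences derive from the values the members were chosen with and were not tested, and shared mice make the intervals approximate.

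The precision of the members followed their mean, apart from Ccnd1 and Ccne1. The plot of SE against mean places the 8 members tested in both tables within the band of other genes. Their SE ran from 0.87 times the median of genes of like mean (Ccne2 in MPP) to 1.38 times (Ccnd2 in GMP, 0.0907 against 0.0655). Ccnd2, at a mean of 4032, had an SE above that of 92.0% of the 200 genes nearest in mean. Ccne1 in MPP was 1.31 times its median (0.301 against 0.229). For Cdk6 the SE was 1.11 times the median in MPP and 1.00 times in GMP. These SEs were among the values the set was chosen with and are a description.

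**Figure D3:**
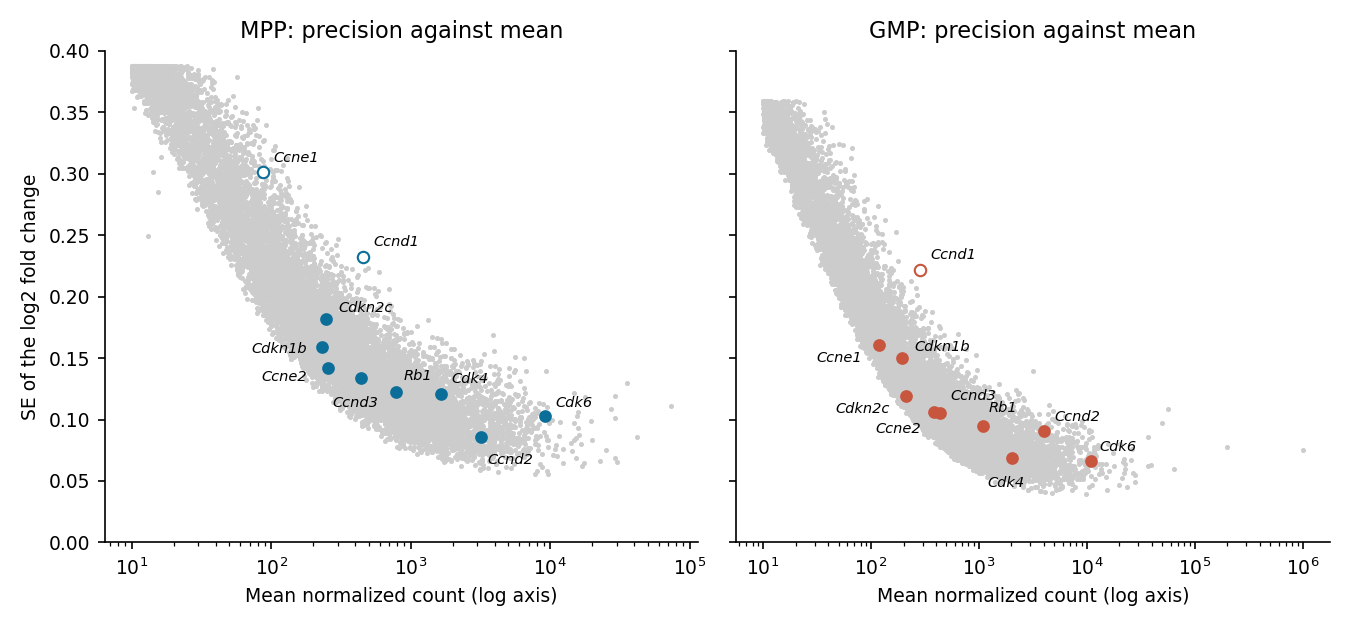
SE of the log2 fold change against the mean normalized count (log axis) for all tested genes (grey) and the 10 genes (coloured, open where marked as outliers). Ccnd1 lies above the band of genes of like mean in both populations, and Cdk6 lies within it at means of 9183 and 10936.

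Several members share exons with a gene on the opposite strand, and the sources used here do not give whether the authors counted reads by strand. The share of annotated exon length that overlaps another gene was 23.4% for Ccnd1 (with LTO1, listed as Oraov1), 19.7% for Cdk4 (Tspan31), 17.4% for Ccne2 (Ints8), 8.11% for Rb1 with Rcbtb2 and 6.78% with Lpar6, and under 5% per partner for Ccnd2, Ccnd3 and Cdk6. Oraov1, with means of 149 and 124, had values of -0.26 (SE 0.218) in MPP and 0.299 (SE 0.171) in GMP in the authors' deposited tables, and was not called in either. Whether reads of one gene were counted for the other was not tested. Of 19 nearest neighbours of the members, 16 were tested in MPP and 17 in GMP, and 1 was called, in GMP, where 3.96% of all tested genes were. The called gene was Uri1, 74433 bases from Ccne1, which encodes a prefoldin-like chaperone component and fell by 0.27 for GMP by the authors' deposited table (SE 0.0743, adjusted p = 0.0163).

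Other cell cycle genes, called pathway genes here, were read from 8 lists of 89 genes that leave out the 10 members. Of these lists 1 holds 12 G2 and M phase genes, which are not of the G1/S pathway. In MPP 1 of 83 tested was called, lower (0.27% of all tested genes were called lower). In GMP 7 of 82 were, 2 higher and 5 lower (1.75% and 2.22% of all tested genes). Of these 7 calls, 4 were in the list of G2 and M phase genes. Over all tested genes, 9.72% in MPP and 16.4% in GMP had an unadjusted p under 0.05 with the authors' DESeq2, and 49.1% and 50.1% lay above 0. When the statistics were scaled to their own robust spread (an empirical null), the 1 call in MPP held and 0 of the 7 in GMP did. This null removed most calls of any kind. It called 18 of 11859 tested genes in MPP and 72 of 11503 in GMP, against 73 and 456 at the authors' adjusted p of 0.05. The median log2 fold change over the tested genes of these lists was -0.05 in MPP and -0.07 in GMP. The lists were chosen with earlier results of these data known.

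Among the other CDK inhibitors, Cdkn1a, which encodes p21, was called higher in GMP. The authors' deposited tables list it at 0.69 (SE 0.171, adjusted p = 0.00453) for GMP and at 0.39 (SE 0.249, marked as an outlier) for MPP. Cdkn2d, which encodes the INK4 protein p19, and Cdkn1c, which encodes p57, stood at -0.47 (SE 0.252) and -0.295 (SE 0.355) for MPP by the authors' deposited table, and neither was called. Cdkn2a and Cdkn2b had means under 1 in both populations. Of 12 ubiquitin ligase parts that act on G1 cyclins or p27, only Skp1a, an adaptor of SCF ligases, was called. By the authors' deposited tables it fell by 0.48 for MPP (SE 0.0997, adjusted p = 0.00134) and by 0.25 for GMP (SE 0.0645, adjusted p = 0.00591). Skp2, the F-box protein that targets p27, is listed in the same authors' deposited tables at -0.15 (SE 0.122) and -0.02 (SE 0.111).

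E2F factors and the listed E2F-regulated genes of S phase entry gave no call. Of 12 pocket protein, E2F and DP genes, 11 were tested in each population, 8 of them below 0 in each, with medians of -0.03 and -0.07 and 0 at an unadjusted p under 0.05 with the authors' DESeq2. The smallest p values in this list belonged to Rbl2, an RB relative (0.14, SE 0.0816), and E2f5, an E2F factor (-0.15, SE 0.200), for MPP by the authors' deposited table. For GMP they belonged to E2f5 (-0.28, SE 0.172) and Rbl1, another RB relative (-0.10, SE 0.0659), by the authors' deposited table. Of 20 E2F-regulated genes of S phase entry, 15 were below 0 in MPP and 16 in GMP, with medians of -0.0971 and -0.0962. In this list 1 and 3 had an unadjusted p under 0.05 with the authors' DESeq2. Over all tested genes 9.72% in MPP and 16.4% in GMP had such a p, and 49.1% and 50.1% lay above 0. For MPP, Mcm5, of the replicative helicase, stood at -0.23 (SE 0.104) and Ung, a uracil DNA glycosylase, at -0.26 (SE 0.139) by the authors' deposited table. For GMP, Rrm1 and Rrm2, the subunits of ribonucleotide reductase, stood at -0.21 (SE 0.0734) and -0.19 (SE 0.0868) by the authors' deposited table, with an adjusted p of 0.0684 for Rrm1.

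Of the 6 genes of the MuvB core and its partners, which repress or activate cell cycle genes, 5 were tested in each population, 4 above 0 in MPP and 1 in GMP, with 0 at an unadjusted p under 0.05 with DESeq2. Lin37 and Mybl2 had the smallest p for MPP (0.316, SE 0.185, and 0.16, SE 0.162), and Mybl2 and Lin9 for GMP (-0.12, SE 0.118, and -0.06, SE 0.0721), by the authors' deposited tables. Of the 8 other cyclin, CDK and activator genes, 6 were below 0 in each population and none was called. Among them 0 and 1 had an unadjusted p under 0.05 with DESeq2, beside 9.72% and 16.4% of all tested genes. Cks1b, a small CDK-binding subunit, stood at -0.30 (SE 0.171) and Cdk7, the kinase that activates other CDKs, at 0.23 (SE 0.135) for MPP by the authors' deposited table. Ccna2, which encodes cyclin A2, stood at -0.18 (SE 0.0882) and Cks2, a relative of Cks1b, at -0.23 (SE 0.129) for GMP by the authors' deposited table.

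Upstream of D cyclins and p27, 11 of 13 tested genes lay above 0 in MPP and 7 of 12 in GMP. Over all tested genes, 49.1% and 50.1% did. Besides Myc, the smallest p for MPP was that of Stat5a, a cytokine-activated factor (0.16, SE 0.0902), by the authors' deposited table. Mycn, a MYC family gene with a mean of only 20.1 in GMP, was called higher there, at 1.101 (SE 0.346, adjusted p = 0.0411) by the authors' deposited table, a call lost when p was adjusted only over genes whose mean reached 50. Foxo1, whose product can induce Cdkn1b, stood at 0.35 (SE 0.125, adjusted p = 0.0885) for GMP by the authors' deposited table.

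Of 12 G2 and M phase genes, all were below 0 in GMP and 11 in MPP, with medians of -0.14 and -0.12. Over all tested genes, 50.1% in GMP and 49.1% in MPP lay above 0. Of the 12 genes, 4 were called lower in GMP, where 2.22% of all tested genes were. None of these 4 calls held with the empirical null, under which only 72 of 11503 tested genes were called in GMP. The 4 genes were Cdk1, the mitotic kinase (-0.39, SE 0.107, adjusted p = 0.0145), its partner Ccnb1 (-0.33, SE 0.0795, adjusted p = 0.00362), Ect2, which acts in cytokinesis (-0.36, SE 0.0769, adjusted p = 0.00032), and the mitotic kinase Plk1 (-0.28, SE 0.0882, adjusted p = 0.0384), by the authors' deposited table. For MPP none was called and 1 had an unadjusted p under 0.05 with DESeq2, as had 9.72% of all tested genes. This was Aurka, a mitotic kinase (-0.44, SE 0.203), followed by Plk1 (-0.24, SE 0.138), by the authors' deposited table. Mki67, the proliferation marker, is listed in the authors' deposited tables at -0.08 (SE 0.109) for MPP and -0.02 (SE 0.0763) for GMP. The plot of pathway lists shows these values beside those of the members.

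**Figure D4:**
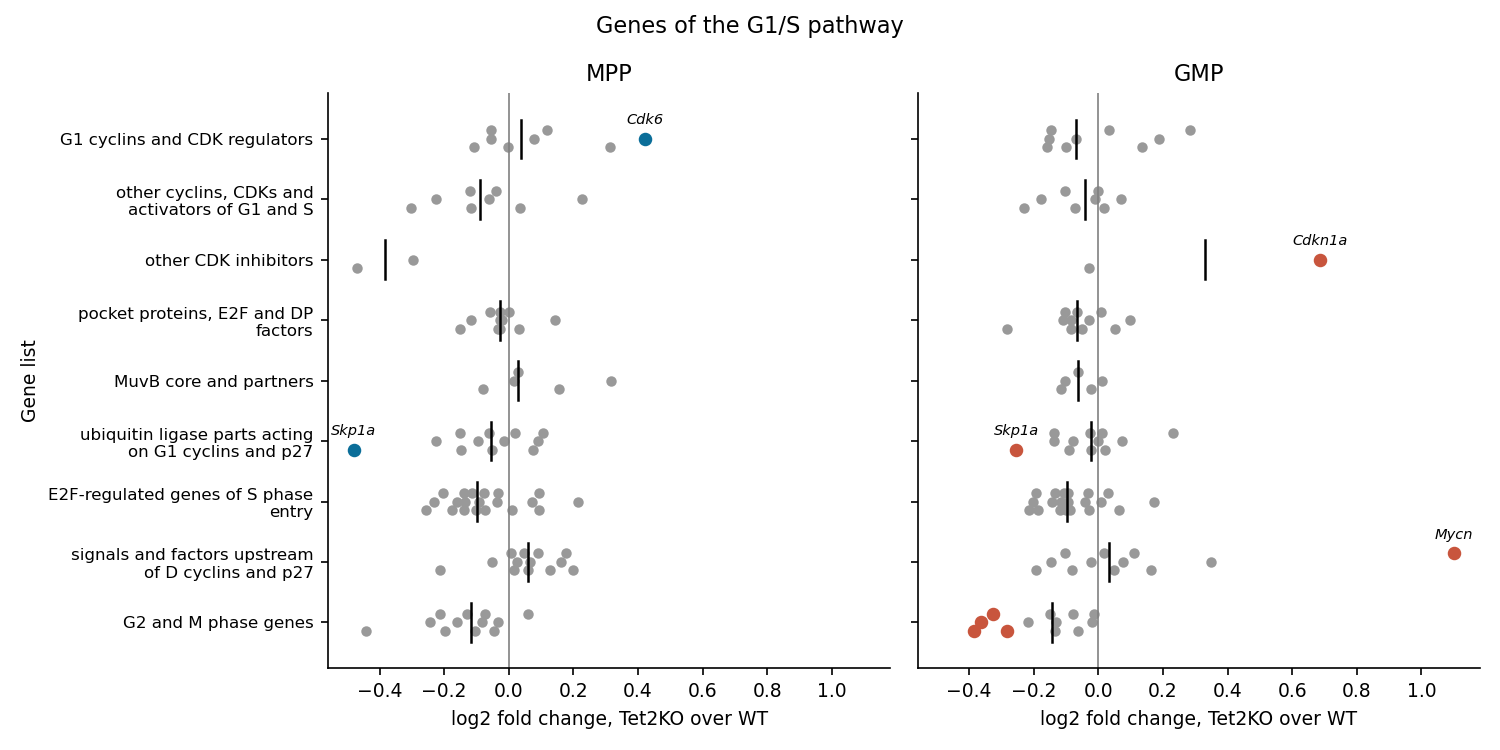
Log2 fold change of Tet2KO over WT for tested genes of the members and of 8 further pathway lists in MPP and GMP; each point is a gene, coloured points are genes the authors' table calls at an adjusted p of 0.05, and black bars are list medians. Cdk6 is the called member in MPP, and of the 7 called pathway genes in GMP 4 are G2 and M phase genes below 0.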

How the data were processed

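The submitters' processing notes name STAR, the genome build mm10 and DESeq2, with no versions. The sources used here do not give the counter or the annotation. The authors deposited 1 table per population: the mean is a normalized signal over all 8 libraries, the log2 fold change and its SE compare Tet2KO with WT, and the p-value and adjusted p-value are the authors' own. Genes with a mean under 10 or marked as outliers have no adjusted p. Per the labels' protocols, libraries came from 2 ng of amplified RNA, with single-end reads of 75 bp. Total counts per library are unknown, so SEs are the measure of precision. With no values per library, p-values could not be recomputed from samples.

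The members and gene lists were chosen with earlier results of these data known. All 10 members are named. Called genes of the other lists are named, with at most 2 of the lowest p for a list without calls. Skp2, Mki67, Foxo1, Oraov1 and Myc in GMP were named after their values were seen. A neighbour is named if called. Calls use the authors' adjusted p of 0.05. Intervals are 95% normal intervals from the SE. Exon lengths and positions come from GENCODE release M21 (mm10), and RefSeq promoters matched 6 of 10 members (Ccnd3, Cdk4, Cdk6, Ccne1, Cdkn1b and Cdkn2c). Alternatives changed the threshold, the genes adjusted over, the null and the centre. The adjustment and the empirical null were tested on simulated data. Software was matplotlib 3.10.9, scipy 1.17.1, pandas 2.3.3 and numpy 2.4.6 under Python 3.11.15.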

Additional observations from a re-analysis of the deposited data

How the results depend on the processing

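The 1 member called in MPP became 0 at an adjusted p of 0.01 and 0 with an empirical null, and remained 1 (Cdk6) at 0.1 and when p was adjusted only over genes whose mean reached 50. In GMP the count of 0 became 1 (Cdk6) at 0.1. Other pathway genes called in GMP, those of G2 and M phase included, numbered 7. They numbered 4 at 0.01, 11 at 0.1, 6 (without Mycn) when adjusted over genes whose mean reached 50, and 0 with an empirical null. The 1 called in MPP (Skp1a) held under all of these. Among all tested genes, the empirical null called 18 in MPP and 72 in GMP, against 73 and 456 at the authors' adjusted p of 0.05. Counts over all tested genes at 0.01 and 0.1 are not given here. Recentring on the median changed the sign only of Ccnd2 in MPP (to 0.0017, or 0.0073 with genes of mean at least 50). With the longest transcript in place of all exons the share of D cyclin transcript was 16.5% for Ccnd1 and 15.5% for Ccnd3 in MPP, and 9.23% and 13.6% in GMP. With no length scaling it was 11.2% for Ccnd1 and 78.0% for Ccnd2 in MPP, and 5.997% for Ccnd1 in GMP, and Ccnd2 held the largest share throughout. No paired analysis was possible because the tables hold no values per library, and for the same reason no library could be left out. Depth per library is unknown, and what it limits was not tested.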
